A study of Homo sapiens with 6 samples.

Results

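ATP-binding cassette (ABC) transporters are membrane proteins that use ATP to move lipids, drugs, bile constituents, conjugated metabolites, peptides and vitamins across membranes. The 36 genes described here belong to subfamilies A, B, C, D and G, with TAP1 and TAP2 left out, and were found by symbol among the 58884 genes of the count table. Each had a single row. Expression was measured in liver metastases of the colorectal cancer line SW480, a widely used human line, carrying a control guide RNA (sgCtrl, 3 libraries) or a guide RNA against ITPR3 (sgITPR3, 3 libraries). All cells grew in the livers of NSG mice, an immunodeficient strain, after injection into the portal circulation, and were recovered by collagenase IV digestion, a density gradient and depletion of mouse cells. Knockout was checked by Western blot per the labels, which do not give the animals' age, the guide sequence, whether the cells were 1 clone or whether each library came from its own animal. The p-values therefore measure only the spread between these samples.

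An ABC transporter is built from membrane-spanning segments and nucleotide-binding domains that bind and split ATP. Several members limit the entry of anticancer drugs into cells. ABCB1 (P-glycoprotein, also called MDR1) is the best known of these and is normally present in gut epithelium, bile canaliculi, kidney and the blood-brain barrier. In liver, other members secrete bile salts, phospholipid and conjugates into bile or return conjugates to blood. In many cell types, ABCA1 and ABCG1 pass cholesterol to lipoproteins.

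A part of the coding sequence that most members share is shown first, with the close relatives ABCB1 and ABCB4 next to each other. The Walker A motif, which holds the phosphates of ATP, was sought in frame in the ABC form of the motif in the principal transcript of each gene (GENCODE 29, GRCh38). It was found at 2 places in 24 members, at 1 place in 11 members and at none in ABCG8. The first stretch is given for ABCB4 and for the 8 members that passed the expression test below, 5′ to 3′ on the coding strand, with the 24 bases of the motif in capitals and 9 bases on each side in lower case.
ABCB1 (chr7:87550210-87550251, minus strand, exon 12 of 28): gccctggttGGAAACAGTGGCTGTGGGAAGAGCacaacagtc
ABCB4 (chr7:87443358-87443399, minus strand, exon 12 of 28): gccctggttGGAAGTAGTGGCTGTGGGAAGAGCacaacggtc
ABCG2 (chr4:88131911-88132610, minus strand, exons 3 and 4 of 16): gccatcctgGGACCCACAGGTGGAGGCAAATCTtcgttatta
ABCC5 (chr3:183967713-183967754, minus strand, exon 12 of 30): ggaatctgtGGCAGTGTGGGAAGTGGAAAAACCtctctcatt
ABCA5 (chr17:69291250-69291291, minus strand, exon 11 of 38): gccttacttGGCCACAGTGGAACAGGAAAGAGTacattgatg
ABCC3 (chr17:50669174-50669215, plus strand, exon 16 of 31): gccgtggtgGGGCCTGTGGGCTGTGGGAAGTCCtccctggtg
ABCC1 (chr16:16079386-16079427, plus strand, exon 16 of 31): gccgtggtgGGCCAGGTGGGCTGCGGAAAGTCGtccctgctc
ABCC4 (chr13:95186881-95188482, minus strand, exons 10 and 11 of 31): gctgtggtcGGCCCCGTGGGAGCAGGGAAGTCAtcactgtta
ABCA3 (chr16:2299416-2299457, minus strand, exon 14 of 33): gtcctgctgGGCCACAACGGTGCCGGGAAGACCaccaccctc
The ABCB4 stretch equals that of ABCB1 at 39 of 42 bases, and the ABCA5 stretch equals it at 26. The coordinates of ABCG2 and ABCC4 span an intron, which is not printed.

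Counts are tags from the 3' ends of transcripts, so what matters for telling members apart is the end of the transcript. Of the distinct 31-base words in the last 500 bases of the ABCB1 transcripts, 7.14% also occur in another gene, and of those of ABCB4, 15.8% occur in ABCB1. ABCA5 shares 17.9% of its words with ABCA10, a neighbour that its annotated transcripts overlap and that had at most 4 counts in a library. No word of ABCC1 or ABCG2 occurs elsewhere, and 0.355% of the words of ABCC3, 0.691% of those of ABCC4, 1.06% of those of ABCA3 and 0.283% of those of ABCC5 do. ABCC6 shares 35.6% of its words with other genes, among them its pseudogenes ABCC6P1 and ABCC6P2, and ABCB6 98.7% with an annotated gene that overlaps it, so the counts of both are uncertain.

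Total counts were from 19140055 to 23943797 per library. Levels are in CPM, the count of a gene relative to the scaled size of its library (edgeR's TMM scaling), and are given per library and as mean ± SD (n = 3 per group), and 1 count was worth 0.0405 to 0.0538 CPM. Tags were not divided by transcript length, so levels are compared between libraries and not between genes. The targeted gene ITPR3 read 107.5, 93.9 and 94.2 CPM in sgCtrl and 39.4, 41.0 and 46.2 CPM in sgITPR3, a 2.34-fold fall in tags from its 3' end, which do not show the edited site. The 10 colorectal epithelial markers, led by KRT18, EPCAM and KRT8, summed to 1867 to 2200 CPM in sgCtrl and 1715 to 1777 CPM in sgITPR3, with CDX2 and VIL1 higher and KRT8 and EPCAM lower in sgITPR3, while KRT20, CDX1 and CDH17 had at most 9 counts in a library. sgCtrl replicate 2 stood apart from the other sgCtrl libraries in liver transcripts. ALB, the hepatocyte albumin gene, read 33.8, 169.7 and 21.6 CPM in sgCtrl and 231.6, 152.6 and 111.5 CPM in sgITPR3. The 20 hepatocyte markers summed to 80.5 to 361 CPM in sgCtrl and 224 to 405 CPM in sgITPR3. Of them 19 had a count and 14 were tested, with APOA1 and CYP2E1 higher and SERPINA1 lower. Without sgCtrl replicate 2, 10 of the markers were higher, among them ALB (log2 fold change 2.58) and APOB (2.43), CYP2E1 did not pass (adjusted p = 0.0505 in edgeR) and SERPINA1 was lower. APOC3 was at 0 in all 6 libraries, and SLC10A1 and APOH had at most 2 counts. The 10 endothelial markers summed to 0.795 to 1.77 CPM in sgCtrl and 0.324 to 0.722 CPM in sgITPR3, with CLEC4G, FCN3 and EMCN at 0. The 12 macrophage and neutrophil markers, led by ITGAM and S100A9, summed to 19.3 to 27.1 and 18.0 to 20.7 CPM, with C1QA and C1QB at 0 and S100A9 lower. The 10 stellate cell and fibroblast markers, led by ACTA2, summed to 20.2 to 22.4 and 25.6 to 28.2 CPM, with LUM at 0 and COL1A1 and DES higher. The 10 cholangiocyte markers, led by KRT19, EPCAM and SOX9, which colorectal cells also express, summed to 1177 to 1322 and 858 to 902 CPM, with TFF2 higher, KRT7, KRT19, EPCAM and AQP1 lower and SPP1 at no more than 1 count. Host cells are from mouse and tags were aligned to the human genome, so low sums do not show that host cells were absent. The part of these cell types in the results was not tested. Results that rest on sgCtrl replicate 2 are given with and without it. ALB was high in every sgITPR3 library and, among the sgCtrl libraries, in replicate 2 alone. A fit with the ALB level as a covariate therefore separates ALB from the guide mainly through that library. A call can end in such a fit through lost precision alone.

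The question asked of the family was which transporter genes differ between sgITPR3 and sgCtrl metastases. ABCB1 showed the largest change of the members tested, a 3.26-fold rise, and ABCC3 the largest fall, 2.12-fold. With them ABCG2, ABCC5 and ABCA5 rose and ABCC1, ABCC4 and ABCA3 fell. Of the 36 members, 34 had a count in some library, 23 passed the low-count filter and were tested, 4 of these rose, 4 fell and 15 did not pass. A change passed at an adjusted p under 0.05 in the quasi-likelihood F test of edgeR, with Benjamini-Hochberg adjustment across the 15804 tested genes. Over all those genes 23.5% passed, 11.6% higher and 11.9% lower, against 34.8% of the tested members. The median log2 fold change was -0.0024 in the tested members and 0.00086 in all genes. A member can pass the filter through its level in a single group, so these figures describe the tested members only. In bulk RNA, fewer cells of a type and less RNA per cell cannot be told apart.

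**Figure D1:**
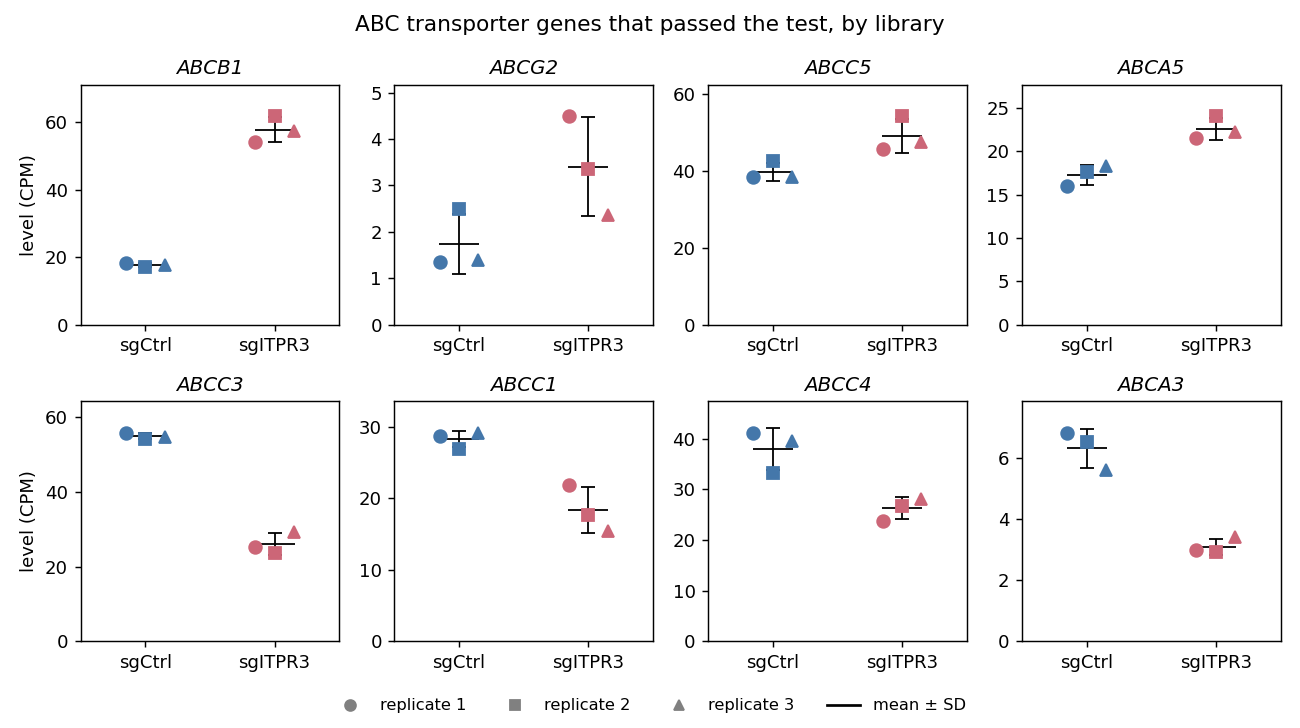
Level in CPM (vertical axis, from 0) of the 8 members that passed the test, by group, with a symbol per replicate and bars for the mean ± SD of 3 libraries. ABCB1 lay between 17.2 and 18.3 CPM in sgCtrl and between 54.2 and 61.7 CPM in sgITPR3, and only ABCG2 overlapped between the groups. These members were chosen by the test, which favours groups without overlap. Of the 15 tested members that did not pass, 4 had no overlap either.

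The transporters of drugs and conjugates moved in both directions. ABCB1 (ENSG00000085563, chromosome 7, 87503633 to 87713323, minus strand) read 18.3, 17.2 and 17.7 CPM in sgCtrl and 54.2, 61.7 and 57.4 CPM in sgITPR3. The sgCtrl libraries were nearly equal, and every sgITPR3 library lay far above them. The means were 17.7 ± 0.567 and 57.8 ± 3.77 CPM, with a log2 fold change of 1.70 (SE 0.085, 95% interval 1.52 to 1.89, adjusted p = 8.20e-09 in edgeR). ABCB1 kept this call in all 13 alternative settings, with log2 fold changes from 1.65 to 1.76. The level in sgCtrl replicate 2 was 0.953 times the mean of the other sgCtrl libraries, where that of ALB was 6.13 times. The ALB level as a covariate left ABCB1 at a log2 fold change of 1.76 (adjusted p = 1.43e-08 in edgeR).

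RefSeq (GRCh38.p14) gives ABCB1 a pair of start sites, and 29 of the 36 members have at least 1 entry among its start regions. The 250 bases before the downstream start, which lies inside the annotated gene, are shown with matches to CCAAT on either strand in capitals. ABCB1 was chosen because it had the largest rise, and this start because its window holds CCAAT.
ABCB1 upstream (chr7:87600885-87601134, minus strand): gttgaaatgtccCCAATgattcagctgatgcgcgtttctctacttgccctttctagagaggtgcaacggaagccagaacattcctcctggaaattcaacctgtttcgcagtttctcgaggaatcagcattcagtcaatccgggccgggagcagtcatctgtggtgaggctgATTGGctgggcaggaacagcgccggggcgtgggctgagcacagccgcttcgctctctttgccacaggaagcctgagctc
Matches to CCAAT begin 238 and 79 bases before that start, the latter on the opposite strand (ATTGG). Neither GGGCGG nor AGGTCA was found there on either strand, and none of these 3 motifs was found before the upstream start. Of 35116 RefSeq start regions of the same length, 32.0% hold CCAAT, 42.6% hold GGGCGG and 12.1% hold AGGTCA. The matches are letters in these windows and not shown to be bound, and tags from 3' ends do not tell which start was used.

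ABCG2, the breast cancer resistance protein and another drug exporter (ENSG00000118777, chromosome 4, 88090264 to 88231322), was low. It read 1.34, 2.49 and 1.39 CPM in sgCtrl and 4.49, 3.36 and 2.37 CPM in sgITPR3. The groups overlapped, since sgITPR3 replicate 3 lay below sgCtrl replicate 2. The rise was 1.96-fold (log2 fold change 0.97, SE 0.305, adjusted p = 0.0331 in edgeR). The call ended without sgCtrl replicate 1 (adjusted p = 0.115 in edgeR), sgCtrl replicate 3 (0.111), sgITPR3 replicate 1 (0.171) or sgITPR3 replicate 2 (0.0825), and without sgCtrl replicate 2 the log2 fold change was 1.32 (0.00463). Given the ALB level as a covariate it was 0.39 (adjusted p = 0.505 in edgeR).

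ABCC3 (MRP3, ENSG00000108846, chromosome 17, 50634777 to 50692252), which exports glucuronides and bile acids across the basolateral membrane of liver and gut cells, fell most. It read 55.8, 54.2 and 54.6 CPM in sgCtrl and 25.1, 23.6 and 29.3 CPM in sgITPR3. The groups were far apart and each was narrow. The means were 54.9 ± 0.828 and 26.0 ± 2.99 CPM (log2 fold change -1.08, SE 0.089, adjusted p = 8.74e-07 in edgeR).

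ABCC1 (MRP1, ENSG00000103222, chromosome 16, 15949577 to 16143074), an exporter of glutathione conjugates such as leukotriene C4, was also lower in each sgITPR3 library. It read 28.8, 27.0 and 29.2 CPM in sgCtrl and 21.9, 17.7 and 15.5 CPM in sgITPR3. The sgITPR3 libraries spread more widely than the sgCtrl libraries but did not reach them. The fall was 1.54-fold (log2 fold change -0.62, SE 0.116, adjusted p = 0.00143 in edgeR). ABCC3 and ABCC1 kept their calls in all 13 alternative settings.

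ABCC4 (MRP4, ENSG00000125257, chromosome 13, 95019829 to 95301475) exports cyclic nucleotides and prostaglandins. It read 41.2, 33.2 and 39.5 CPM in sgCtrl and 23.8, 26.8 and 28.1 CPM in sgITPR3. The lowest sgCtrl value, that of replicate 2, still lay above every sgITPR3 library. The fall was 1.45-fold (log2 fold change -0.53, SE 0.0995, adjusted p = 0.00143 in edgeR). Fitted with the ALB level as a covariate it was -0.35 and the call ended (adjusted p = 0.0520 in edgeR).

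ABCC5 (MRP5, ENSG00000114770, chromosome 3, 183919934 to 184018015), a related exporter of cyclic nucleotides and of conjugated amino acids, went the other way by a small amount. It read 38.4, 42.6 and 38.4 CPM in sgCtrl and 45.8, 54.3 and 47.4 CPM in sgITPR3. The groups did not overlap, and in each the highest library was replicate 2. The rise was 1.24-fold (log2 fold change 0.31, SE 0.086, adjusted p = 0.0188 in edgeR). The call ended without sgCtrl replicate 1 (adjusted p = 0.0638 in edgeR), sgCtrl replicate 3 (0.0659) or sgITPR3 replicate 2 (0.128), and with the ALB level as a covariate (0.182).

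The remaining members of this role gave no call. ABCC10 (MRP7) was at 11.5 ± 0.704 CPM in sgCtrl and 9.50 ± 0.557 CPM in sgITPR3 without overlap (log2 fold change -0.27, 95% interval -0.53 to -0.01, adjusted p = 0.123 in edgeR). ABCC2 (MRP2), the exporter of conjugates into bile, was at 0.538, 1.44 and 0.267 CPM in sgCtrl and 1.55, 0.486 and 0.619 CPM in sgITPR3, so a single library of each group was high (log2 fold change 0.23, adjusted p = 0.817 in edgeR). ABCC11 had 2, 3 and 1 counts in sgCtrl and 0, 2 and 0 in sgITPR3 and was not tested. Of the 9 members of this role, 8 were tested, 3 rose and 3 fell.

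**Figure D2:**
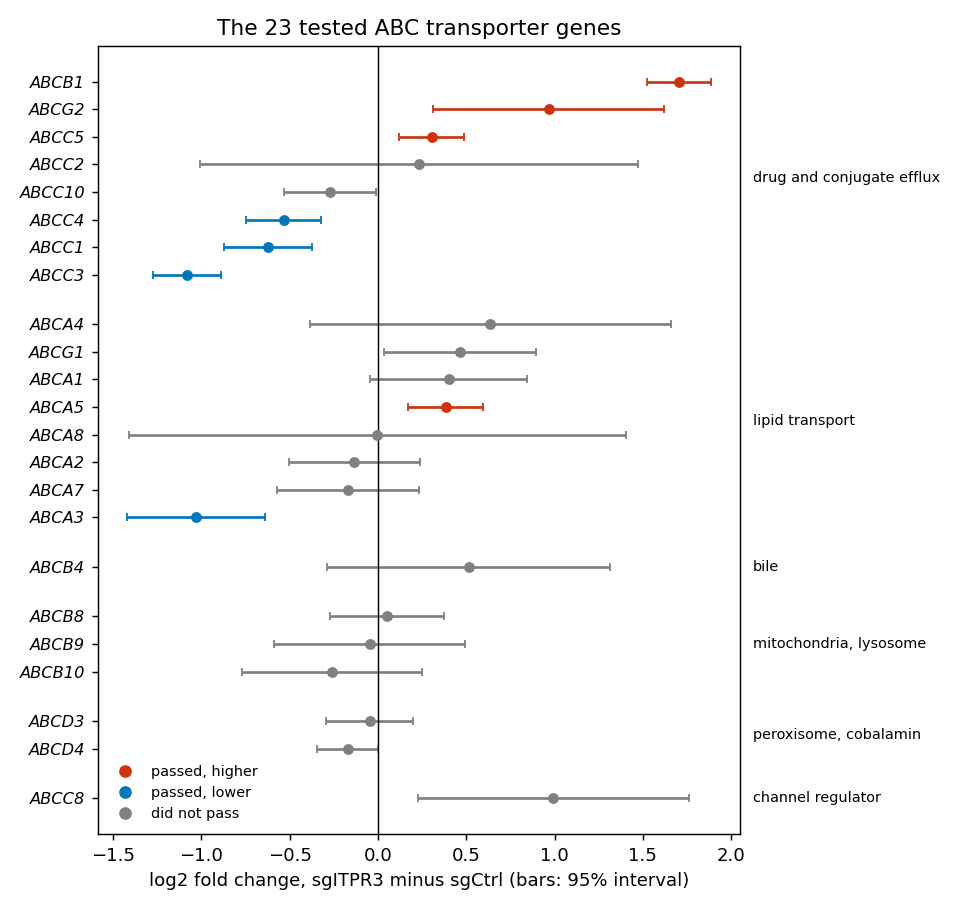
Log2 fold change of sgITPR3 over sgCtrl (horizontal axis, bars 95% interval) for the 23 tested members, ordered by role. Drug and conjugate efflux holds 3 rises and 3 falls among 8 tested members, and lipid transport 1 rise and 1 fall among 8. The other roles drawn had only 1 to 3 tested members each, and 23.5% of all genes tested passed. The intervals are widest for the low members ABCA8, ABCC2 and ABCA4.

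Among 14 lipid transporters, 8 were tested, 1 rose and 1 fell. ABCA3 (ENSG00000167972, chromosome 16, 2275881 to 2340746), which loads phospholipid into the lamellar bodies of lung epithelium, read 6.83, 6.51 and 5.61 CPM in sgCtrl and 2.98, 2.91 and 3.40 CPM in sgITPR3. All sgITPR3 libraries were well below all sgCtrl libraries. The fall was 2.04-fold (log2 fold change -1.03, SE 0.182, adjusted p = 9.45e-04 in edgeR), and it passed in all 13 alternative settings. ABCA5 (ENSG00000154265, chromosome 17, 69244311 to 69327244), a lysosomal lipid transporter, read 16.03, 17.7 and 18.3 CPM in sgCtrl and 21.5, 24.04 and 22.2 CPM in sgITPR3. The groups did not overlap. The rise was 1.30-fold (log2 fold change 0.38, SE 0.098, adjusted p = 0.0115 in edgeR). The call ended without sgITPR3 replicate 2 (adjusted p = 0.0706 in edgeR). Given the ALB level as a covariate it remained at 0.39 without passing (adjusted p = 0.0737 in edgeR).

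ABCA1, which passes cholesterol and phospholipid to apolipoprotein A-I, read 8.18, 15.8 and 7.79 CPM in sgCtrl and 14.9, 13.8 and 13.3 CPM in sgITPR3. sgCtrl replicate 2 lay above every sgITPR3 library while the other sgCtrl libraries lay below them all. The log2 fold change of 0.40 did not pass (adjusted p = 0.183 in edgeR), without sgCtrl replicate 2 it was 0.81 (adjusted p = 3.12e-04 in edgeR), and with the ALB level as a covariate it was -0.09 (adjusted p = 0.784 in edgeR). ABCG1, which passes cholesterol to high-density lipoprotein, read 3.33, 4.82 and 3.15 CPM in sgCtrl and 5.18, 5.26 and 5.21 CPM in sgITPR3. Its groups did not overlap but the difference did not pass (log2 fold change 0.46, adjusted p = 0.109 in edgeR). Without sgCtrl replicate 2 it was 0.68 (adjusted p = 0.0203 in edgeR).

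The other tested lipid transporters were ABCA2, ABCA4, ABCA7 and ABCA8. ABCA2 and ABCA7 had log2 fold changes of -0.13 and -0.17, with 95% intervals of -0.51 to 0.24 and -0.57 to 0.23. ABCA4, the retinoid transporter of photoreceptors, had 7 to 18 counts in sgCtrl and 14 to 23 in sgITPR3 (log2 fold change 0.64, adjusted p = 0.369 in edgeR). ABCA8 had 2, 28 and 3 counts in sgCtrl and 14, 14 and 10 counts in sgITPR3, so that sgCtrl replicate 2 alone placed the sgCtrl mean at that of sgITPR3. Its log2 fold change was -0.0024, and 2.02 without that library (adjusted p = 0.0431 in edgeR).

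Both members of the bile role varied between the sgCtrl libraries. ABCB4 (MDR3, ENSG00000005471, chromosome 7, 87401697 to 87480435), which moves phosphatidylcholine into bile, read 10.8, 38.8 and 8.33 CPM in sgCtrl and 29.5, 29.5 and 24.1 CPM in sgITPR3. As with ABCA1, sgCtrl replicate 2 lay above all sgITPR3 libraries and the other sgCtrl libraries lay below them. The log2 fold change was 0.51 (SE 0.374, adjusted p = 0.352 in edgeR). Without sgCtrl replicate 2 it was 1.54 (adjusted p = 1.79e-07 in edgeR), and with the ALB level as a covariate it was -0.32 (adjusted p = 0.173 in edgeR). ABCB11, the bile salt export pump, had 2, 8 and 1 counts in sgCtrl and 6, 19 and 21 counts in sgITPR3. It did not pass the low-count filter. Without a filter it was higher (adjusted p = 0.0425 in edgeR), but adjusted p-values of that fit are not comparable with those of the main fit. There ABCB4 had an adjusted p of 4.15e-05 in edgeR at the same log2 fold change of 0.51. Without sgCtrl replicate 2, ABCB11 had a log2 fold change of 3.01 (adjusted p = 0.0160 in edgeR).

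The level in sgCtrl replicate 2 was more than 1.5 times the mean of the other sgCtrl libraries in 7 of the 23 tested members. These were ABCB9 (1.70 times), ABCG2 (1.82), ABCC8 (1.93), ABCA1 (1.97), ABCC2 (3.58), ABCB4 (4.06) and ABCA8 (10.4). The same held for 7.87% of all genes tested and for 12 of the 14 tested hepatocyte markers, among them CPS1, a urea cycle enzyme of liver (8.74 times). Without sgCtrl replicate 2, 10 of 24 tested members were higher instead of 4 of 23, and 4 were lower in both fits. The members added to those higher were ABCB4, ABCB11, ABCA1, ABCA8, ABCG1 and ABCC8. Of the 16266 genes tested without sgCtrl replicate 2, 26.2% passed in either direction, against 23.5% of genes with all libraries. The share of genes higher was not counted separately without that library, so 26.2% is no background for the 10 rises alone. In either direction, the members to set against it are the 10 higher and 4 lower of 24. ALB itself had a log2 fold change of 2.58 in the fit without sgCtrl replicate 2. There, 10 of the 14 tested hepatocyte markers were higher and 1 was lower. The fit without that library therefore does not separate the ALB level from the guide. With the ALB level as a covariate, ABCB1 alone remained higher, and ABCC3, ABCC1 and ABCA3 remained lower, while the calls over all genes went from 3717 to 1982 (12.5%). Since the ALB level largely follows the group, that fit rests mainly on sgCtrl replicate 2. It cannot decide whether a lost call was due to the ALB level or to lost precision. Whether the tags of these members came from tumour or liver cells was not tested.

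**Figure D3:**
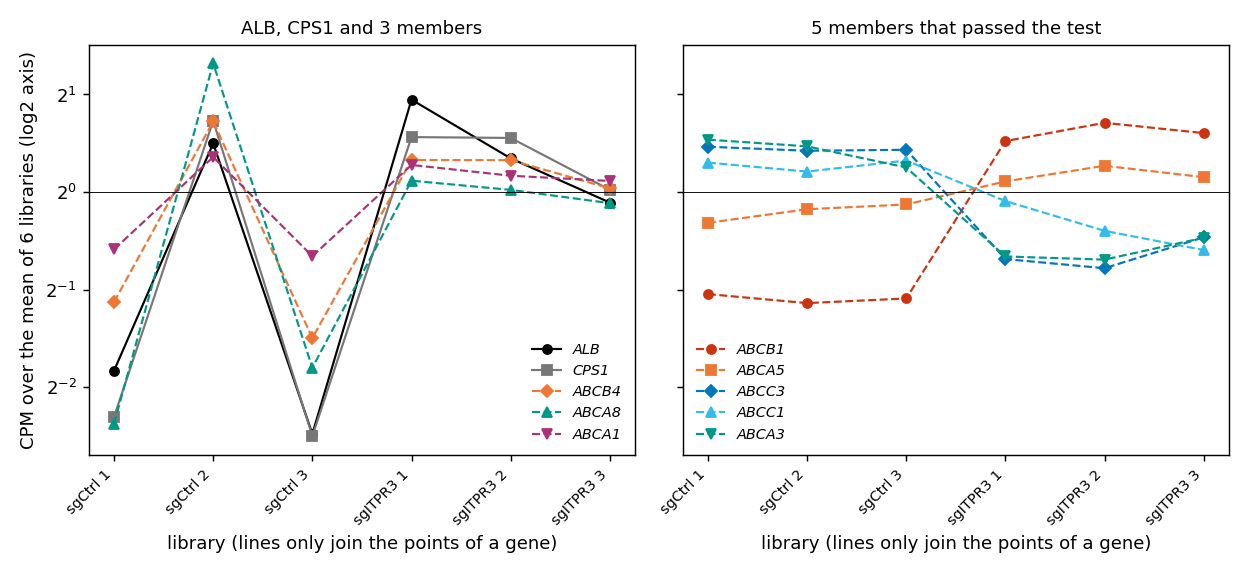
Level of each gene divided by its mean over the 6 libraries (vertical axis, log2 scale), by library. In the left panel ABCB4, ABCA8 and ABCA1 are high in sgCtrl replicate 2, as ALB and CPS1 are, and low in sgCtrl replicates 1 and 3, while in the right panel ABCB1, ABCA5, ABCC3, ABCC1 and ABCA3 separate by group. The genes of both panels were picked, so the contrast between the panels was fixed by that choice. ABCG2, ABCC4 and ABCC5, which also passed, are not drawn.

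None of the 5 tested members grouped here by a mitochondrial, lysosomal peptide, peroxisomal or cobalamin role gave a call. ABCB8 and ABCB10, of the inner mitochondrial membrane, had log2 fold changes of 0.05 (95% interval -0.27 to 0.37) and -0.26 (-0.77 to 0.25). ABCB10 was at 6.95, 4.69 and 3.09 CPM in sgITPR3 against 5.42 to 6.57 CPM in sgCtrl. ABCB9, a lysosomal peptide transporter, had a log2 fold change of -0.05 (-0.59 to 0.49). ABCD3, the peroxisomal membrane protein PMP70, was at 35.3 ± 5.36 and 34.2 ± 4.07 CPM (log2 fold change -0.05, interval -0.29 to 0.20). ABCD4, which acts in the release of cobalamin from lysosomes, read 35.4, 35.6 and 32.4 CPM in sgCtrl and 30.4, 30.5 and 30.9 CPM in sgITPR3 without overlap (log2 fold change -0.17, adjusted p = 0.145 in edgeR). ABCB6 had at most 10 counts in a library, and ABCD2 had a single count in 1 library.

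Of the members that act as or regulate channels, only ABCC8 was tested. ABCC8 (SUR1), the sulfonylurea receptor of ATP-sensitive potassium channels, had 11, 28 and 16 counts in sgCtrl and 56, 39 and 33 in sgITPR3, without overlap in CPM. The log2 fold change of 0.99 did not pass (95% interval 0.22 to 1.76, adjusted p = 0.0593 in edgeR), and without sgCtrl replicate 2 it was 1.38 (adjusted p = 0.0155 in edgeR). The pore subunit genes of these channels did not pass, with a log2 fold change of -0.21 for KCNJ11 (adjusted p = 0.711 in edgeR) and 1.25 for KCNJ8 (0.0781). ABCC9 (SUR2) had 0 to 2 counts. The epithelial chloride channel CFTR had 3 counts in sgITPR3 replicate 2 and 0 in the other libraries.

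Members at or near 0 complete the family. ABCG5, which forms a sterol exporter with ABCG8, and ABCA12, a lipid transporter of skin, had 0 counts in all 6 libraries, which allows up to 0.121 to 0.161 CPM per library at a floor of 3 counts. This covers counting error only. ABCG8 had 0 to 6 counts, ABCA9 0 to 5, ABCA13 0 to 3, ABCG4 0 to 2 and ABCC6 2 to 15, and none of these was tested.

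Of 10 genes listed around ABCB1 on 7q21, from DMTF1 to ADAM22, all were tested, 3 rose and 0 fell. ABCB1, around which the list was drawn, is 1 of these 3 rises. Over all genes tested, 11.6% rose and 11.9% fell. The neighbour ABCB4 had a log2 fold change of 0.51 with all libraries and did not pass, and it was at 1.54 without sgCtrl replicate 2 (adjusted p = 1.79e-07 in edgeR), where ABCB1 was at 1.68 and ALB at 2.58. With the ALB level as a covariate, ABCB4 was at -0.32 (adjusted p = 0.173 in edgeR) and ABCB1 at 1.76 (1.43e-08). Without sgCtrl replicate 2, 4 of the 10 genes were higher, ABCB1, ABCB4, TP53TG1 (log2 fold change 0.69, adjusted p = 0.00210 in edgeR) and CROT (0.53, 0.00654). The share of all genes higher in that fit was not counted. With all 6 libraries, the rises apart from ABCB1 were those of TP53TG1, a non-coding RNA gene, and CROT, a peroxisomal carnitine acyltransferase. TP53TG1 went from 8.09 ± 1.44 to 11.7 ± 0.683 CPM (log2 fold change 0.53, adjusted p = 0.0147 in edgeR). CROT went from 17.3 ± 1.94 to 23.5 ± 3.95 CPM with overlap (0.44, adjusted p = 0.0219 in edgeR). Both calls ended with the ALB level as a covariate (0.297 and 0.352 as adjusted p in edgeR). They ended too without sgCtrl replicate 1 (0.0614 and 0.0836), sgCtrl replicate 3 (0.0586 and 0.0703) or sgITPR3 replicate 1 (0.0644 and 0.102), and that of CROT without sgITPR3 replicate 2 (0.109). RUNDC3B, which overlaps ABCB1 on the opposite strand, had 26 to 49 counts in sgCtrl and 54 to 76 in sgITPR3 (log2 fold change 0.46, adjusted p = 0.235 in edgeR). The sources used here do not state whether counting used the strand, so tags from the overlap cannot be told apart, and the RUNDC3B counts were well below those of ABCB1. SLC25A40 and DBF4, on the far side of RUNDC3B, had log2 fold changes of -0.06 and -0.04.

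**Figure D4:**
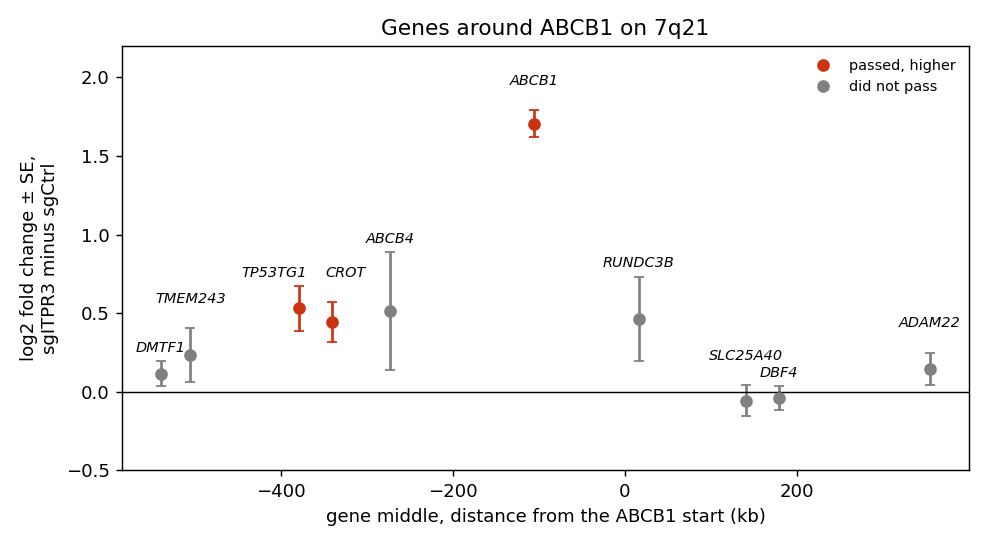
Log2 fold change ± SE of sgITPR3 over sgCtrl (vertical axis) for the 10 listed genes of 7q21, by the distance of the gene's middle from the ABCB1 start in kb (horizontal axis). With all 6 libraries ABCB1 stands at 1.70 and the other 9 lie between -0.06 and 0.53. Not drawn are the values of ABCB4 without sgCtrl replicate 2 (1.54) and with the ALB level as a covariate (-0.32).

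Transcription factors and other regulators of these transporters were examined as a list of 20, of which 15 were tested, 2 rose, 2 fell and 11 did not pass (median log2 fold change -0.03). HNF4A, a nuclear receptor of hepatocytes and enterocytes, went from 4.31 ± 0.405 to 12.8 ± 0.400 CPM, a 2.97-fold rise (adjusted p = 1.63e-06 in edgeR). PPARA, a fatty acid sensing nuclear receptor, rose from 12.8 ± 0.880 to 20.7 ± 1.63 CPM (log2 fold change 0.69, adjusted p = 3.18e-04 in edgeR). PPARD, a related receptor, fell from 54.5 ± 1.71 to 41.5 ± 2.32 CPM (log2 fold change -0.39, adjusted p = 0.00169 in edgeR). SREBF2, the sterol-responsive factor, fell from 26.1 ± 1.96 to 18.7 ± 0.616 CPM (log2 fold change -0.48, adjusted p = 0.00206 in edgeR), and its call ended with the ALB level as a covariate (adjusted p = 0.0536 in edgeR). The xenobiotic receptors NR1I2 (PXR) and NR1I3 (CAR), which induce ABCB1 in liver and gut, had 0 to 13 and 0 to 1 counts.

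Partners of cholesterol transport gave 3 rises and 2 falls among 14 tested of 15. NPC2, a lysosomal cholesterol carrier, fell by 0.22 on the log2 scale (adjusted p = 0.0449 in edgeR), a call that ended with the ALB level as a covariate (0.391). APOC1 rose from 9.47 ± 0.698 to 14.5 ± 0.229 CPM (log2 fold change 0.62, adjusted p = 0.00143 in edgeR). APOA1, which accepts the lipid that ABCA1 exports and is also a hepatocyte marker, rose from 4.50 ± 3.27 to 9.44 ± 2.58 CPM with overlap (1.06, adjusted p = 0.0414 in edgeR). Given the ALB level as a covariate, its value was 0.20 (adjusted p = 0.601 in edgeR). The APOA1 call also ended with DESeq2 (adjusted p = 0.225) and without sgCtrl replicate 1 (0.138), sgCtrl replicate 3 (0.131), sgITPR3 replicate 1 (0.1498) or sgITPR3 replicate 2 (0.110). STARD3, a sterol carrier of late endosomes, rose by 0.28 on the log2 scale (adjusted p = 0.0431 in edgeR), and this call ended when any 1 library other than sgCtrl replicate 2 was left out (0.0525 to 0.168) and with the ALB level as a covariate (0.375).

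Among 17 other carriers of bile acids, organic anions and organic cations, 9 were tested, 1 rose and 1 fell. SLCO4A1, an uptake carrier of organic anions, fell from 99.0 ± 10.2 to 56.7 ± 6.06 CPM (log2 fold change -0.80, adjusted p = 2.23e-05 in edgeR). SLC22A3, an organic cation carrier, rose from 12, 8 and 3 counts to 35, 41 and 18 counts (log2 fold change 1.77, adjusted p = 0.0138 in edgeR). That call ended with the ALB level as a covariate (adjusted p = 0.145 in edgeR) and without sgCtrl replicate 3 (0.0559), sgITPR3 replicate 1 (0.0552) or sgITPR3 replicate 2 (0.0761). The hepatocyte uptake carriers SLC10A1 and SLCO1B3 had at most 1 count and 0 counts. Of 10 partners of the channel members, 8 were tested, 1 rose and 2 fell. SLC26A9, an epithelial chloride channel, fell from 61, 65 and 62 counts to 10, 14 and 2 counts (log2 fold change -3.08, adjusted p = 5.68e-05 in edgeR), and SLC12A2, the sodium, potassium and chloride cotransporter, rose from 67.4 ± 4.99 to 95.8 ± 3.08 CPM (0.51, adjusted p = 1.71e-04 in edgeR). The scaffold gene NHERF2 fell by 0.84 on the log2 scale (adjusted p = 0.0240 in edgeR), a call that ended with the ALB level as a covariate (0.136) and without sgCtrl replicate 1 (0.0503), sgCtrl replicate 3 (0.0782), sgITPR3 replicate 2 (0.0531) or sgITPR3 replicate 3 (0.0790). Of 10 partners of the peroxisomal and cobalamin transporters, all were tested and CROT alone passed.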

How the data were processed

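Tags from the 3' ends of polyadenylated RNA (Lexogen 3' FWD kit, per the labels) were analysed in 6 libraries. Values are gene counts as deposited by the authors, who per the submitters' processing notes aligned to GRCh38 with STAR 2.6.0a, counted with featureCounts 1.6.3 and used DESeq2. Not given in the sources used here were the gene annotation used for counting, its strand setting and how mouse or multiply aligned reads were handled. Symbols and positions came from a gene name table and GENCODE 29 (58611 of 58884 identifiers with a position).

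With R 4.3.3 and edgeR 4.0.16, genes were kept by filterByExpr (minimum count 10; 99.8% to 99.9% of counts), libraries were scaled by TMM (factors 0.962 to 1.03), and sgITPR3 was compared with sgCtrl by the quasi-likelihood F test without covariates. The SE is the absolute log2 fold change over the square root of F. The procedure was also run on simulated data, which held no library that stood apart as sgCtrl replicate 2 did. That run therefore does not address the effect of that library. Replicates differed beyond sampling noise (chi-square per degree of freedom 6.07 to 11.4).

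The members and lists were chosen with earlier results of these data known. ABCB1 and each member that passed are given in full, other members by values or range, and from each list up to 4 genes with the smallest p, and fewer where only some passed. CPS1, KCNJ11 and the genes named for having few counts were named after their values were seen. As alternatives, the fit was repeated with DESeq2 1.42.0, with limma-voom (limma 3.58.1), with RLE scaling, unfiltered, on genes reaching 1 CPM in 3 libraries, with a block for replicate number, with the log2 ALB level as a covariate and with single libraries omitted. The values of 1 gene of the cholesterol list are not reported here. Sequences are from RefSeq (GRCh38.p14) and GENCODE 29.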

Additional observations from a re-analysis of the deposited data

How the results depend on the processing

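Of the calls on members, those of ABCB1, ABCC3, ABCC1 and ABCA3 passed in all 13 alternative settings. The number of members called lower was 4 in 12 of these settings and 3 with the ALB level as a covariate. The number called higher was 8 with no filter, 1 with the ALB level as a covariate, and 1 to 10 when a library was left out, the 10 without sgCtrl replicate 2 and the 1 without sgITPR3 replicate 2. It was 2 without sgCtrl replicate 1 or 3. The 8 with no filter are not comparable with the main fit. ABCB4 went from an adjusted p of 0.352 to 4.15e-05 in edgeR there, at an unchanged log2 fold change of 0.51. Over all genes, 1982 were called with the ALB level as a covariate and 2331 to 4261 when a library was left out. No pairing by replicate number was seen. Deviations of equally numbered libraries correlated at -0.0511, 0.0384 and 0.119, and those of unequally numbered libraries at -0.138 to 0.113. With 3 libraries per group, these values cannot exclude a pairing. With the replicate block 3877 genes were called, 4 members were higher and 4 lower, and ABCB1 had a log2 fold change of 1.70. Some members that did not pass changed sign. With the ALB level as a covariate ABCA1 had a log2 fold change of -0.0877, ABCA2 0.0275, ABCB4 -0.32 and ABCC2 -0.85. ABCA8 was at 0.0029 with no filter, 0.40 with the replicate block, 0.0146 with DESeq2 and 0.79 with limma-voom, and ABCB9 at 0.00029 with limma-voom. When a library was left out, ABCA2 ranged from -0.25 to 0.0125, ABCA8 from -0.48 to 2.02, ABCB8 from -0.00577 to 0.10, ABCB9 from -0.25 to 0.26, ABCC2 from -0.46 to 1.13 and ABCD3 from -0.17 to 0.0432. The cause of these changes was not tested. ABCA4, ABCA8, ABCC2 and SLC22A3 had no value under the filter of 1 CPM in 3 libraries. ABCB11, below the filter with all libraries, was also called higher with no filter and without sgCtrl replicate 2 or sgITPR3 replicate 1.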
